A study of Rattus norvegicus with 8 samples.

Results

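The genes of Wnt signalling were followed in the hippocampus of rats given yohimbine and imipramine together. A list of 39 genes was set, and a gene's probes were those that carried its symbol in the gene name column of the scanner files. By that rule 33 of the 39 genes had a probe, 35 probes in all of 30367 on the array, and 27 of the 33 passed the filter on dim probes and were tested among 18803 features. The 27 comprised 6 ligands, 7 receptors and coreceptors, 4 secreted antagonists, 7 intracellular proteins and 3 feedback inhibitors. Wnt2, Wnt3a, Fzd7, Dvl2, Tcf7l1 and Znrf3 had no probe under those symbols and were not analysed here by the rule. The 6 genes with a probe that did not pass were the ligands Wnt5a and Wnt8b, the receptors Fzd4 and Fzd5, and the antagonists Dkk1 and Dkk2.

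The treated group, Y+I, held 4 male Sprague Dawley rats aged 3 months that had received yohimbine, which blocks the alpha2 class of adrenoceptors, with imipramine, a tricyclic drug that slows the clearance of serotonin and noradrenaline from the synapse, for 7 days. The vehicle group held 4 male rats of the same strain and age given vehicle for 7 days. Hippocampus was taken 2 h after treatment, with 1 single-colour array for the RNA of each animal. The drugs were given together, so their separate effects cannot be told apart here. In whole tissue, fewer cells of a type and less messenger RNA per cell cannot be told apart either.

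Wnt proteins are secreted lipid-modified ligands that bind Frizzled receptors and the coreceptors Lrp5 and Lrp6. In the canonical branch, ligand binding acts through Dishevelled to inhibit a complex of Axin, Apc and Gsk3b that marks beta-catenin for degradation, so that beta-catenin accumulates and works with Tcf and Lef factors on target genes; other branches run through Ror2, Ryk and planar polarity proteins. In the adult hippocampus, Wnt signalling is known for its part in the formation of new granule neurons in the dentate gyrus and in the maintenance of synapses.

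The results turn on a handful of probes of 60 bases. Their sequences, as the scanner files give them 5′ to 3′, are shown because each of these probes stands for 1 gene whose values separated the groups, or, for Axin2, for the canonical feedback gene, and because the 2 Ror2 probes differed in sign. Positions are those of the files on rat build rn4. The Wnt3 probe lies at chr10:92964260-92964319 on the plus strand, the Fzd2 probe at chr10:91710151-91710210 on the plus strand, the Sfrp1 probe at chr16:73030329-73030388 on the minus strand, the Sfrp2 probe at chr2:175486729-175486788 on the plus strand and the Axin2 probe at chr10:98321105-98321164 on the plus strand. The Ryk probe lies at chr8:107884445-107884504 on the plus strand, and the Ror2 probes at chr17:17736035-17736094 and chr17:17737226-17737285 on the minus strand. The part of a transcript that a probe covers was not analysed here.
Wnt3: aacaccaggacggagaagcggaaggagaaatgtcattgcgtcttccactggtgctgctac
Fzd2: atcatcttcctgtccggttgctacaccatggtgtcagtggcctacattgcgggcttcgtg
Sfrp1: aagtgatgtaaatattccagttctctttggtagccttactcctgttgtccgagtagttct
Sfrp2: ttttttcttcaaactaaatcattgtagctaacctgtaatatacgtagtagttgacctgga
Axin2: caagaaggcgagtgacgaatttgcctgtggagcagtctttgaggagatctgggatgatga
Ryk: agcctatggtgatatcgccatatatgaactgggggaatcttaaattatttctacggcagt
Ror2, brighter probe: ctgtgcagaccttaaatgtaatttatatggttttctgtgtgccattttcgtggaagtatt
Ror2, dimmer probe: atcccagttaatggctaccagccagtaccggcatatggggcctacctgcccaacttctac
No 2 probes of different listed genes shared a run of more than 11 bases, the longest being that between Wnt7b and Fzd5. The probes of 6 tested genes lay on chromosome 10 (Wnt3, Fzd2, Axin1, Tcf7, Axin2 and Rnf43), and those of Fzd2 and Wnt3 were 1.25 Mb apart.

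Values below are normalised log2 signals, the log2 of the background-subtracted processed signal of a probe minus the 75th percentile of its array. A value of 0 is the brightness of a spot at that percentile and 1 unit is a doubling; a difference is Y+I minus vehicle, given with its standard error, and p-values are limma's, adjusted over all 18803 features. Since probes bind with different strength, levels of different genes were not set against each other. Of 10 hippocampus markers, 9 were above background on all 8 arrays, and the tenth, Prox1, on 2 Y+I arrays and on all 4 vehicle arrays. Y+I arrays were dimmer near background: 64.4% to 74.8% of their spots were well above background, against 76.4% to 79.7% in vehicle, and 14.0% to 22.8% of their spots carried a surrogate value in place of a measured one, against 10.54% to 12.7% in vehicle. Each group lay on its own row of 1 slide, and row and treatment therefore cannot be told apart. With 4 arrays a group, precision is limited.

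Among the 27 genes, Wnt3 was the only one to pass limma's test, 1.50-fold lower in Y+I animals. Its dim probe entered the test through vehicle and was above background on 3 of 4 Y+I arrays. Among the 20 genes above background on all 8 arrays, 0 passed, beside 313 of 15181 such features. The 1 of 27 called (3.70%) stands beside 2.33% of all features called at an adjusted p under 0.05, 0.739% higher and 1.6% lower. Unadjusted p was under 0.05 for 9 of the 27, namely Wnt2b and Sfrp2 higher and Wnt3, Wnt5b, Wnt7b, Fzd1, Fzd2, Sfrp1 and Axin2 lower, a share of 33.3% beside 15.6% of all features (6.46% higher and 9.16% lower). Values of the groups did not overlap for 4 of the 27 (14.8%), beside 11.7% of all features (5.04% higher and 6.65% lower in Y+I). These were Sfrp2, higher in Y+I, and Wnt3, Fzd2 and Sfrp1, lower in Y+I. Of the genes counted in these shares, Wnt3, Wnt7b, Sfrp1 and Axin2 entered only through vehicle, where they were brighter. The shares therefore lean in part on the filter. The difference was above 0 for 11 genes and below 0 for 16, with a median of -0.12 against -0.02 over all features. The median SD between animals was 0.307 in Y+I and 0.172 in vehicle for these genes, against 0.239 and 0.134 over all features.

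**Figure D1:**
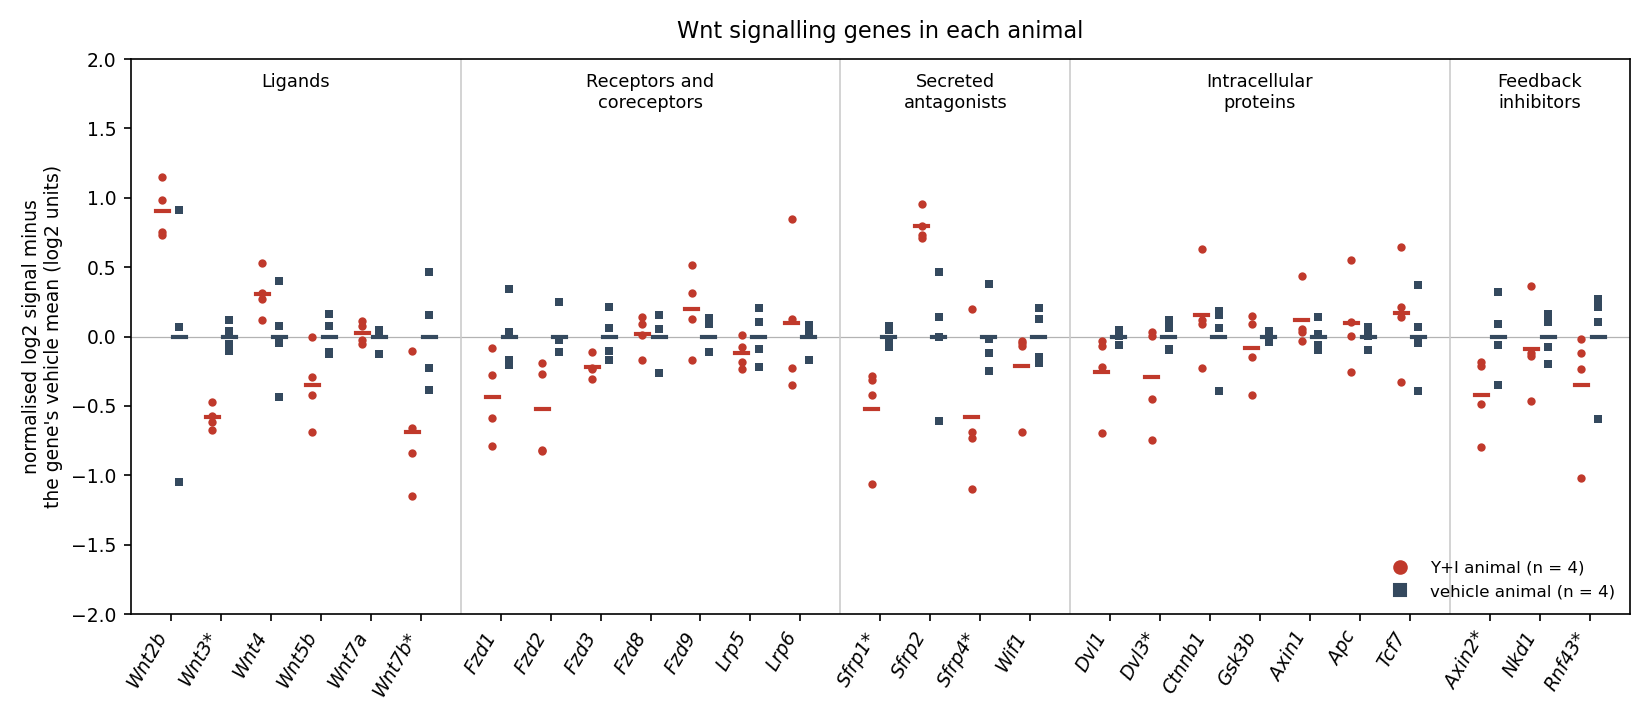
Normalised log2 signal of the 27 tested genes in each animal, as the deviation from the gene's vehicle mean in log2 units, by role; red circles are Y+I animals, dark squares vehicle animals (n = 4 each), short lines the group means, and an asterisk marks a gene that failed to clear the background on at least 1 Y+I array. Wnt3, Fzd2 and Sfrp1 of Y+I lie below all vehicle values and Sfrp2 lies above them, while the intracellular proteins overlap.

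Entry through the filter was uneven. Of the 27 genes, 20 cleared the background on all 8 arrays (they were well above it by the scanner software's test). The difference was above 0 for 11 of these and below 0 for 9, with a median of 0.02. Of the 20, 0 were called, beside 313 of the 15181 features on all 8 arrays. Unadjusted p was under 0.05 for 5 of the 20, beside 15.6% of all 18803 features. The other 7, Wnt3, Wnt7b, Sfrp1, Sfrp4, Dvl3, Axin2 and Rnf43, cleared the background on every vehicle array but on 1 to 3 of the 4 from Y+I. They passed the filter only through the group in which they were brighter, so a lower value in Y+I is largely built into their choice and their direction supports nothing; all 7 were below 0, with a median of -0.52. Among all features, 71.7% of the 3610 that passed through vehicle only were below 0, against 7586 of the 15181 on all 8 arrays. The groups did not overlap for 2 of the 20 genes on all 8 arrays, Sfrp2 and Fzd2, beside 1826 of those 15181 features.

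Ligands were read first. Wnt3, which is secreted by hippocampal astrocytes and promotes the formation of granule neurons from adult progenitors, gave -4.93, -5.08, -5.13 and -5.03 in Y+I animals 1 to 4, against -4.56, -4.34, -4.42 and -4.52 in vehicle animals 1 to 4. Every Y+I value lay below every vehicle value, and the spread within each group was small (SD 0.084 in Y+I and 0.099 in vehicle, n = 4 each). The difference was -0.58 ± 0.09 (SE), with an adjusted p of 0.0194. An exact two-sided permutation test gave 0.0286, the smallest value that 4 against 4 allows, which any gene without overlap reaches. In scanner units the processed signals behind these values were 61.6, 41.8, 56.2 and 32.1 in Y+I, against 86.0, 100.7, 90.8 and 92.4 in vehicle. These signals are not scaled for the brightness of the array. The 75th percentiles were 1883, 1408, 1971 and 1045 in Y+I animals 1 to 4, against 1939 to 2106 in vehicle. Wnt3 was thus a dim gene, and 3 of the 4 Y+I arrays measured it above background. It entered the test only through vehicle, so a lower value is largely built into its choice. Of the 3610 features that entered so, 366 did not overlap, 321 of them lower in Y+I. Of the 15181 features on all 8 arrays, 1826 did not overlap. The direction of a separation thus leans on the filter, while separation itself was not more frequent among such features. With normexp, another background correction, its difference was -0.05 with an adjusted p of 0.790, and the call was also lost with a trended robust variance (adjusted p = 0.0576), with the arrays scaled by cyclic loess (adjusted p = 0.0893), without Y+I animals 2 and 3, which had the fewest spots above background (0.0852), and without vehicle animal 2, 3 or 4 (0.0652 to 0.0708).

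Wnt7b and Wnt2b had larger differences than Wnt3 but were more variable. Wnt7b, a ligand known for its roles in dendrite growth and in brain vessels, gave -5.64, -5.82, -6.13 and -5.08 in Y+I, against -5.37, -5.21, -4.52 and -4.83 in vehicle. Y+I animal 4 fell within the vehicle range, and the difference was -0.69 ± 0.25 with an adjusted p of 0.223; it cleared the background in 2 of the 4 Y+I animals. Wnt2b, a canonical ligand, gave -4.08, -4.47, -4.49 and -4.24 in Y+I, against -4.32, -5.15, -6.27 and -5.16 in vehicle. Here the vehicle group was the variable one (SD 0.198 in Y+I and 0.803 in vehicle), vehicle animal 1 lay among the Y+I values, and the difference of 0.91 ± 0.35 had an adjusted p of 0.247.

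The remaining ligands did not pass the test. Wnt5b, a ligand of the non-canonical branch, ranged from -4.64 to -3.96 in Y+I, against -4.08 to -3.79 in vehicle, with a difference of -0.35 (adjusted p = 0.308). Wnt4, a ligand of several branches, stood at 1.25 to 1.66 in Y+I against 0.69 to 1.53 in vehicle, with a difference of 0.31 (adjusted p = 0.447). Wnt7a, which is known for presynaptic assembly, was nearly level at -0.16 to 0.0055 in Y+I and -0.23 to -0.05 in vehicle, and its difference of 0.03 ± 0.09 was the one with the largest p of the ligands (adjusted p = 0.926). The median difference of the 6 ligands was -0.16, and it was 0.04 under normexp and 0.17 over the 4 ligands above background on all 8 arrays. Normexp moved the median of all features from -0.02 to 0.09, so differences under normexp are read beside 0.09 rather than 0.

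Wnt5a and Wnt8b were not measurable. The Wnt5a probe, for the best-known ligand of the non-canonical branch, was above background on 0 Y+I arrays and 1 vehicle array, at -8.32 to -6.67 in Y+I against -7.80 to -7.14 in vehicle. Wnt8b, which marks the hippocampal primordium in the embryo, was above background on 0 of 8 arrays, and all 4 of its spots in each group held surrogate values. No fold was taken for either.

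Receptors showed no call, though 2 of the 7, Fzd1 and Fzd2, had an unadjusted p under 0.05. Fzd2, a Frizzled used by both canonical and non-canonical ligands, gave -2.90, -3.44, -2.82 and -3.45 in Y+I, against -2.74, -2.65, -2.74 and -2.38 in vehicle. Every Y+I value lay below every vehicle value, though the gap between the nearest animals was narrow. The difference of -0.52 ± 0.17 had an adjusted p of 0.179, and the exact two-sided permutation test gave 0.0286. Fzd2 was above background on all 8 arrays, and its difference was -0.29 under normexp.

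Fzd1 and Fzd3 came next by p. Fzd1, another canonical Frizzled, gave -2.11, -1.60, -2.31 and -1.80 in Y+I, against -1.69, -1.73, -1.18 and -1.48 in vehicle, a difference of -0.44 ± 0.18 (adjusted p = 0.288) with Y+I animal 2 inside the vehicle range. Fzd3, which is known for axon guidance, gave -4.55, -4.63, -4.55 and -4.43 in Y+I, against -4.11, -4.49, -4.26 and -4.42 in vehicle. The Fzd3 groups overlapped at their edges, and the difference of -0.22 ± 0.11 (adjusted p = 0.382) was 0.10 under normexp.

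The other receptors lay close to 0. Fzd9, a Frizzled expressed in the hippocampus, had a difference of 0.20 (adjusted p = 0.591), and Fzd8 one of 0.02 (adjusted p = 0.961). Of the coreceptors, Lrp5 differed by -0.12 (adjusted p = 0.687) and Lrp6 by 0.10 (adjusted p = 0.888), with 0.02 at the second Lrp6 probe. Lrp6 was uneven among Y+I animals, where animal 4 stood at -0.51 and the other 3 between -1.70 and -1.23, against -1.53 to -1.28 in vehicle. The median of the 7 receptors was -0.12, and 0.09 under normexp, where the median of all features was 0.09 too. Fzd4 and Fzd5 were above background on 0 of 8 arrays, and 8 of 8 Fzd5 spots in Y+I and 6 of 8 in vehicle held surrogate values.

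None of the 4 antagonists passed the test, and 2, Sfrp1 and Sfrp2, had an unadjusted p under 0.05. Sfrp2, a secreted Frizzled-related protein that binds Wnt ligands, gave -3.42, -3.51, -3.26 and -3.49 in Y+I, against -4.83, -4.08, -3.75 and -4.22 in vehicle. All Y+I values lay above all vehicle values, and the vehicle animals were the more variable (SD 0.112 in Y+I and 0.450 in vehicle). The difference was 0.80 ± 0.21, with an adjusted p of 0.0969 and a permutation p of 0.0286 (exact, two-sided). Sfrp2 was above background on all 8 arrays and kept its direction under every alternative run. It passed the threshold under normexp (0.64, adjusted p = 0.0194) and with no filter on dim probes (adjusted p = 0.0447). In those settings 66.4% and 86.5% of the calls over all features were higher in Y+I, against 31.7% in the fit used here. They therefore give no separate support for a rise of Sfrp2.

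Sfrp1 and Sfrp4, of the same family, had differences below 0 on the processed signals. Sfrp1 gave -5.34, -5.45, -6.09 and -5.31 in Y+I, against -5.07, -4.95, -4.98 and -5.10 in vehicle, so that the groups did not overlap and Y+I animal 3 was the lowest. Its difference was -0.52 ± 0.17 (adjusted p = 0.175), with 3 of the 4 Y+I animals above background, and it was 0.06 under normexp. Sfrp4 gave -6.08, -7.01, -7.38 and -6.96 in Y+I, against -6.29, -6.39, -5.90 and -6.53 in vehicle; Y+I animal 1 lay within the vehicle range. The Sfrp4 difference of -0.58 ± 0.26 (adjusted p = 0.337) rested on 2 Y+I arrays above background and was 0.20 under normexp. Wif1, which also binds Wnt ligands directly, differed by -0.21 (adjusted p = 0.620). The median of the 4 antagonists was -0.37, and 0.13 under normexp.

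Dkk1 and Dkk2, which bind Lrp5 and Lrp6, were not measurable. Both Dkk1 probes and the Dkk2 probe were above background on 0 of 8 arrays. All 8 Dkk2 spots of each group held surrogate values, which lay at -8.94 to -7.34 in Y+I and -9.71 to -9.16 in vehicle. With no filter on dim probes, such values put Dkk2 and Wnt8b past the threshold as higher in Y+I.

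**Figure D2:**
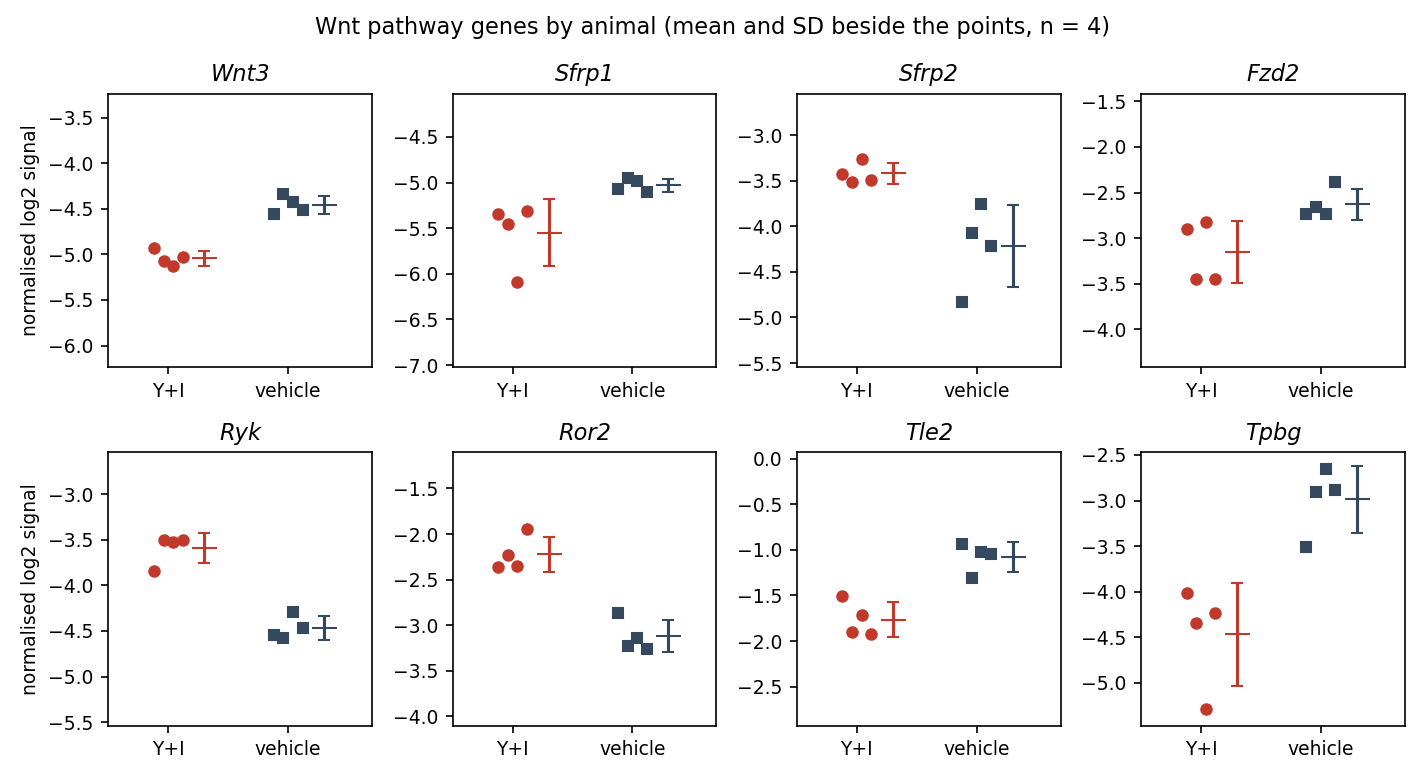
Normalised log2 signal by animal for 4 Wnt genes of the list (upper row) and 4 other pathway genes (lower row), Y+I left and vehicle right, with the mean and SD beside the points (n = 4 each); every panel spans 3 log2 units. The groups are separate in all 8 panels, with Sfrp2, Ryk and Ror2 higher in Y+I and Wnt3, Sfrp1, Fzd2, Tle2 and Tpbg lower.

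None of the 7 genes of intracellular proteins passed the test, and 0 had an unadjusted p under 0.05. Dvl1, a Dishevelled that relays the signal from Frizzled, gave 0.63, -0.0015, 0.67 and 0.48 in Y+I, against 0.71, 0.70, 0.63 and 0.74 in vehicle, a difference of -0.25 ± 0.15 (adjusted p = 0.464) to which Y+I animal 2 contributed the lowest value. Dvl3, its paralogue, gave -6.30, -6.60, -5.85 and -5.82 in Y+I, against -5.79, -5.94, -5.95 and -5.73 in vehicle. The Dvl3 difference of -0.29 ± 0.18 (adjusted p = 0.490) came from a probe above background on 1 Y+I array and was 0.19 under normexp.

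The components that set beta-catenin stability were nearly level. Axin1, the scaffold of the degradation complex, gave 0.74, 0.72, 0.65 and 1.12 in Y+I, against 0.58, 0.82, 0.62 and 0.71 in vehicle (difference 0.12 ± 0.12, adjusted p = 0.695). Ctnnb1, which encodes beta-catenin, differed by 0.15 ± 0.20 (adjusted p = 0.767), Gsk3b, the kinase of the complex, by -0.08 ± 0.13 (adjusted p = 0.820) and Apc by 0.10 ± 0.16 (adjusted p = 0.819). For Gsk3b the range was -1.06 to -0.49 in Y+I and -0.68 to -0.60 in vehicle, so that the vehicle animals lay inside the spread of Y+I. Tcf7, a factor that binds beta-catenin, differed by 0.17 ± 0.22 (adjusted p = 0.773). The median of all 7 intracellular proteins, Dvl1 and Dvl3 included, was 0.10.

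Feedback inhibitors, which are themselves induced by the canonical branch, gave no call. Axin2, the gene most often used as its reporter, gave -5.47, -5.79, -5.17 and -5.20 in Y+I, against -4.66, -5.05, -5.34 and -4.90 in vehicle. Vehicle animal 3 lay among the Y+I values, and the difference of -0.42 ± 0.18 had an adjusted p of 0.309. Axin2 was above background on 2 Y+I arrays, and its difference was 0.13 under normexp. Nkd1, which binds Dishevelled, gave -0.51, -0.48, -0.0011 and -0.83 in Y+I, against -0.26, -0.20, -0.56 and -0.44 in vehicle (difference -0.09 ± 0.17, adjusted p = 0.851). Rnf43, a ubiquitin ligase that removes Frizzled from the surface, gave -5.58, -6.59, -5.80 and -5.68 in Y+I, against -5.29, -5.46, -6.16 and -5.35 in vehicle (difference -0.35 ± 0.26, adjusted p = 0.582). The median of the 3 was -0.35, and 0.13 under normexp.

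**Figure D3:**
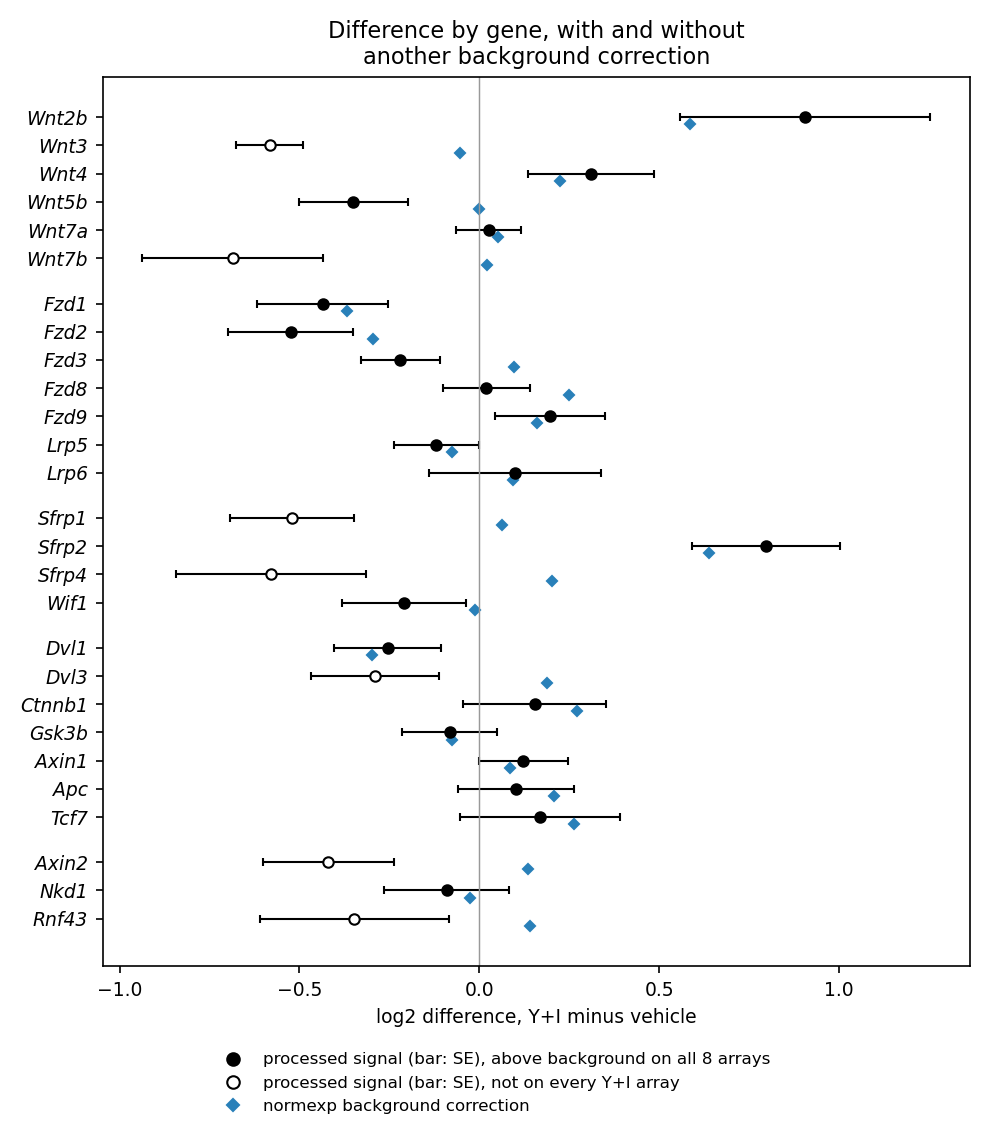
Log2 difference, Y+I minus vehicle, of the 27 genes by role; circles are the processed signal with bars of 1 SE, open where a gene failed to clear the background on at least 1 Y+I array, and blue diamonds give the same difference after normexp background correction. All 7 open circles lie below 0, and 6 of their 7 diamonds lie above 0, while Sfrp2 and Wnt2b stay above 0 on both scales. Normexp moved the median of all features from -0.02 to 0.09. Against that median, the diamonds of Sfrp4, Dvl3, Axin2 and Rnf43 lie above and those of Wnt3, Wnt7b and Sfrp1 below.

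Tcf7l1, another Tcf factor, was reached through the accession of 2 probes that carry an older symbol. The brighter one differed by 0.10 (adjusted p = 0.741) and the dimmer one by -0.11.

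Other genes of the pathway were read from the same fit. Of 66 such genes, 53 were tested and 5 changed (9.43%, beside 2.33% of all features): Ryk and Ror2 rose, and Celsr1, Tle2 and Tpbg fell. Celsr1 and Tpbg entered the test only through vehicle, where they were brighter; with a filter on all 8 arrays the calls were Ror2, Ryk, Tle2 and Wnt10a. Unadjusted p was under 0.05 for 18 of the 53 (34.0%), 8 higher and 10 lower. Over all features the share was 15.6%, 6.46% higher and 9.16% lower. Of the 53, 40 were above background on all 8 arrays. The rest, some of the 10 lower genes among them, entered only through vehicle, so a lower value is largely built into their choice. The median difference of the 53 was -0.01. Ryk and Ror2 are both receptors of the non-canonical branch; Ror2 is a receptor tyrosine kinase that binds Wnt5a, whose own probe was not measurable here.

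Ryk gave -3.84, -3.50, -3.52 and -3.51 in Y+I, against -4.55, -4.57, -4.29 and -4.47 in vehicle. The groups were well apart, and the difference was 0.88 ± 0.12 (1.84-fold higher, adjusted p = 0.0095). The brighter Ror2 probe gave -2.36, -2.23, -2.35 and -1.94 in Y+I, against -2.86, -3.22, -3.13 and -3.26 in vehicle, which was 0.90 ± 0.13 (1.87-fold higher, adjusted p = 0.0136). The dimmer Ror2 probe, 1 Y+I array of which was above background, gave -6.54, -6.73, -6.35 and -5.94 in Y+I, against -5.94, -5.74, -6.18 and -5.94 in vehicle, a difference of -0.44. The probes of Ror2 therefore differed in sign. The dimmer one was kept only through vehicle, so its lower value is largely built into its choice, and its groups overlapped. With the mean of the probes (0.23, adjusted p = 0.474), which takes in the dimmer one, the gene was not called. When single arrays were left out, Ryk was called every time, and Ror2 every time except without vehicle animal 4 (adjusted p = 0.0608); without Y+I animals 2 and 3 together, Ryk had an adjusted p of 0.0614 and Ror2 of 0.0593.

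Tle2, a Groucho corepressor that binds Tcf factors, gave -1.51, -1.91, -1.72 and -1.92 in Y+I, against -0.93, -1.31, -1.03 and -1.04 in vehicle. All Y+I values were lower, by 0.69 ± 0.13 (1.61-fold lower, adjusted p = 0.0332), on a probe above background on all 8 arrays. Tpbg, a membrane glycoprotein that inhibits canonical signalling in zebrafish, gave -4.01, -4.34, -5.28 and -4.23 in Y+I, against -3.51, -2.91, -2.65 and -2.89 in vehicle, a difference of -1.48 ± 0.29 (2.79-fold lower, adjusted p = 0.0362) on a probe above background on 3 of 4 Y+I arrays, and of -0.81 under normexp (adjusted p = 0.0348). Celsr1, a cadherin of planar polarity, gave -6.37, -6.70, -6.68 and -6.42 in Y+I, against -5.66, -5.67, -5.83 and -5.75 in vehicle. Its difference of -0.81 ± 0.11 (adjusted p = 0.0104) rested on 1 Y+I array above background and was 0.10 under normexp. The Tle2 call was lost without any 1 of Y+I animals 2, 3 and 4 and vehicle animals 1, 3 and 4 (adjusted p of 0.0570 to 0.112), and that of Tpbg without any 1 of Y+I animals 2 and 4 and vehicle animals 2, 3 and 4 (0.0662 to 0.115). Without Y+I animals 2 and 3 together the adjusted p was 0.136 for Tle2 and 0.0906 for Tpbg, and with array weights it was 0.0577 for Tle2. Both kept their direction under the alternatives in which they were tested.

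Of 18 textbook targets of beta-catenin, 15 were tested and 0 changed by limma at an adjusted p under 0.05. Unadjusted p was under 0.05 for 4 (26.7%, beside 15.6% of all features), 1 higher and 3 lower. Axin2 and Lef1, both lower, are also counted in the lists above, and Axin2 entered only through vehicle. Neurod1, a transcription factor of new granule neurons, gave -1.21, -0.92, -1.05 and -0.67 in Y+I, against -1.38, -1.55, -1.22 and -1.62 in vehicle. Those groups touched without overlapping, with a difference of 0.48 ± 0.14 (adjusted p = 0.137). Lef1, both a partner of beta-catenin and a target, gave -3.31, -3.47, -3.54 and -3.31 in Y+I, against -2.98, -3.15, -3.11 and -3.11 in vehicle (difference -0.32 ± 0.10, adjusted p = 0.139). Jag1, a Notch ligand, gave -3.92, -3.31, -3.83 and -3.87 in Y+I, against -3.07, -3.35, -3.32 and -3.37 in vehicle; Y+I animal 2 lay within the vehicle range (difference -0.46 ± 0.15, adjusted p = 0.177). The median of the 15 was -0.09.

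Among markers of tissue next to the hippocampus, some were lower in Y+I at an adjusted p under 0.05. They were 2 of 8 neocortical (25%), 1 of 9 thalamic (11.1%) and 3 of 11 meningeal genes (27.3%), and the others did not pass. Beside these, 1.6% of all 18803 features were called lower, and 10175 had a difference below 0. Of the markers, 5 neocortical, 6 thalamic and 9 meningeal genes were above background on all 8 arrays. The rest, Rprm among them, entered through vehicle only, so a lower value is largely built into their choice. The summed signal of 8 neocortical layer markers, on a scale where 1 is the 75th percentile of an array, was 1.67 to 2.87 in Y+I against 7.79 to 10.6 in vehicle, and 8 of 8 were below 0. Nxph3 carried most of it, at 0.669 to 1.54 in Y+I against 6.12 to 8.69 in vehicle, and the other 7 summed to 0.814 to 1.44 in Y+I against 1.39 to 1.91 in vehicle, which overlap. Nxph3 was 7.05-fold lower (adjusted p = 0.0047); Rprm, above background on 0 Y+I arrays, was at least 2.17-fold lower against the lowest signal measured above background (adjusted p = 0.0071). The 9 thalamus and habenula markers summed to 2.14 to 2.46 in Y+I against 3.34 to 4.62 in vehicle, with 6 of 9 below 0 and Slc17a6, the vesicular glutamate transporter of the thalamus, 2.25-fold lower (adjusted p = 0.0291). Lef1 is on that list too, as is Tcf7l2, which differed by 0.09. The 11 meningeal and fibroblast markers summed to 3.36 to 4.14 in Y+I against 4.75 to 5.93 in vehicle, with 10 of 11 below 0. Among these, Col1a1 was 2.04-fold lower (adjusted p = 0.0135), Slc6a13 2.03-fold lower (adjusted p = 0.0105) and Igfbp2 1.66-fold lower (adjusted p = 0.0383). The part of these markers in the Wnt results was not tested.

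Hippocampus markers summed to 41.6 to 47.4 in Y+I against 25.1 to 38.1 in vehicle, with 6 of 10 above 0, 4 below 0 and 0 called. Fibcd1, singled out after its values were seen, made up 30.4 to 37.7 of the sum in Y+I against 14.5 to 30.8 in vehicle and did not pass (difference 0.57, adjusted p = 0.260); the other 9 summed to 9.64 to 11.9 in Y+I against 7.32 to 10.51 in vehicle, which overlap. In the whole list 4 had an unadjusted p under 0.05 (40%, beside 15.6% of all features). Prox1, the granule cell factor, differed by 0.37 (adjusted p = 0.528). For 10 astrocyte markers the sums of 166 to 222 in Y+I overlapped the 205 to 216 of vehicle, with 0 called and 1 at an unadjusted p under 0.05; Gfap differed by 0.08 (adjusted p = 0.885). Of 10 endothelial markers, 3 were above 0, and the sums were 13.5 to 16.1 in Y+I and 13.4 to 14.9 in vehicle. There the tight junction gene Cldn5 differed by 0.01 (adjusted p = 0.983), while the VEGF receptor Kdr was 2.05-fold lower (adjusted p = 0.0093) and the glucose transporter Slc2a1 1.77-fold higher (adjusted p = 0.0430). The 5 choroid plexus markers were uneven within both groups, at 1.76 to 3.46 in Y+I and 1.94 to 6.20 in vehicle, with 1 of 5 above 0; the choroid plexus gene Ttr differed by -0.33 ± 1.16 (adjusted p = 0.929).

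**Figure D4:**
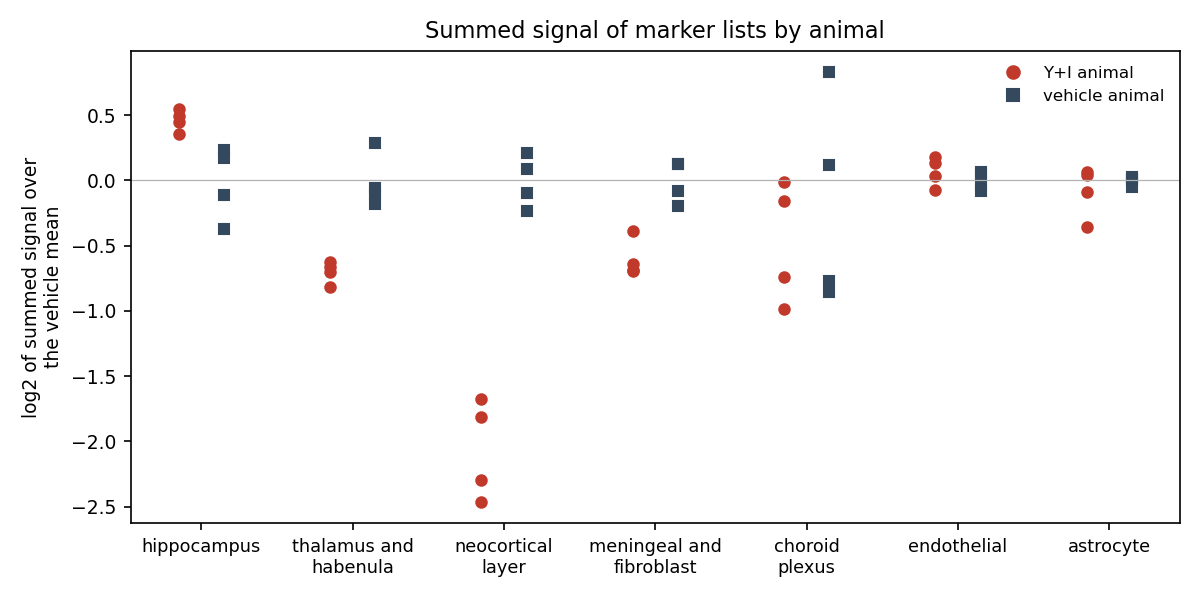
Summed signal of 7 marker lists in each animal, as log2 over the vehicle mean of that list; red circles are Y+I animals and dark squares vehicle animals (n = 4 each). The neocortical, thalamic and meningeal lists of Y+I lie below all vehicle animals and the hippocampus list above them, sums that Nxph3 and Fibcd1 carry in the neocortical and hippocampus lists, while the choroid plexus, endothelial and astrocyte lists overlap.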

How the data were processed

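RNA of 8 hippocampi, 4 Y+I and 4 vehicle, was labelled with Cy3 and hybridised to Agilent rat arrays, per the labels' protocols. Per the file headers, Agilent Feature Extraction 10.5.1.1 gave each spot a mean, a local background and a processed intensity from which background had been subtracted, without scaling across arrays. Log2 values fill the deposited value table, with scale unstated; against the scanner values its slope was 0.997 and r at least 0.998, its medians were -3.51 to -3.35 and its 75th percentile about 0.01, so it was read as log2 signal centred on a 75th percentile, in the same direction. It served as an alternative.

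The values computed here were log2 of the processed intensity minus the 75th percentile over 58717 noncontrol spots of an array. Spots flagged as outliers were left out, spots of a probe were averaged, and no spot was saturated. A probe was kept if well above background, on at least 50% of its spots, on all 4 arrays of a group, with at least 3 values per group (21370 probes). Symbols followed RefSeq GRCr8: accessions named 18004 probes, symbols 2320 and synonyms 626, while 1999 kept the file's name and 7418 had none. The brightest kept probe stood for a gene. Groups were compared with limma 3.58.1 in R 4.3.3 (lmFit and eBayes, two-sided, Benjamini-Hochberg, threshold 0.05), which called 439 features, 139 higher and 300 lower; the procedure was tested on simulated data. Single genes were also compared by an exact permutation test. A fold against a probe below background on every array of a group is a lower bound: for each array the higher of the probe's own value and the lowest value measured above background was taken. The alternatives were normexp with an offset of 50, quantile, median and cyclic loess normalisation, the deposited table, other filters, other summaries of probes, variance models, array weights, a replicate block and omitted arrays.

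Each replicate was another animal, per the labels. The genes, lists and tests were chosen with earlier results of these data known. Named genes were all 39 listed genes, with values in every animal for those called and the 3 smallest p in each role; of other lists, the called genes, or without any the 3 smallest p; and Slc17a6, Ttr, Cldn5, Gfap and Prox1. Figures used matplotlib 3.10.9 in Python 3.11.15.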

Additional observations from a re-analysis of the deposited data

Results flagged for a closer look

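In 64 groups of 4 values, those of the 27 Wnt genes and of 5 other pathway genes, the highest or lowest animal was tested for its distance from the rest, and 3 groups stood out; chance marks about 1 in 20 groups. Wif1 was -4.01 in Y+I animal 2, and the nearest Y+I animal was at -3.40. Ryk was -3.84 in Y+I animal 1, below the other Y+I animals and still above every vehicle animal. Wnt7a was -0.23 in vehicle animal 4, against -0.07 in the nearest vehicle animal.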

How the results depend on the processing

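Dim signals limit these values, as do the 4 arrays a group and the shared row of each group. Normexp moved the median of all features to 0.09, against -0.02 on the processed signal, a shift of 0.11; relative to these medians, 14 of the 27 Wnt genes lay above under normexp and 11 on the processed signal. The split of calls over all features was 400 higher and 202 lower under normexp (66.4% higher), 86.5% higher with no filter and 43.3% with a filter on all 8 arrays, against 31.7%, and 18.6% without Y+I animal 4. Under normexp the differences turned above 0 for Wnt5b (0.00010), Wnt7b (0.022), Fzd3 (0.095), Sfrp1 (0.063), Sfrp4 (0.20), Dvl3 (0.19), Axin2 (0.13), Rnf43 (0.14) and Celsr1 (0.10), and medians were 0.037 for ligands, 0.094 for receptors, 0.13 for antagonists and 0.13 for feedback inhibitors. With no filter, medians were 0.16, 0.019 and 0.14 for ligands, receptors and antagonists; with the filter on all 8 arrays, 0.17 for ligands and 0.29 for antagonists. Array weights gave -0.054 for ligands, -0.20 for antagonists, -0.036 for Fzd8 and -0.0038 for Tcf7. Leaving out Y+I animals 2 and 3 gave -0.059 for ligands, -0.15 for antagonists, -0.080 for Fzd8 and -0.056 for Tcf7. The dimmer Ror2 probe gave -0.44. In the value table Lrp5 was 1.02 and the receptor median 0.045. The cause of these shifts was not tested, except that filters change which genes are read and that the Lrp5 value is described below.

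The 439 calls over all features became 665 with cyclic loess, 3887 with no filter, 170 without Y+I animals 2 and 3, and 121 to 348 when single arrays were left out. The 1 call among Wnt genes became 4 with no filter (Dkk2, Sfrp2, Wnt3 and Wnt8b), and 0 with cyclic loess, the filter on all 8 arrays, where Wnt3 was not tested, a trended robust variance (Wnt3 adjusted p = 0.0576) or without Y+I animals 2 and 3; it was 0 to 1 with single arrays left out. The 5 other pathway calls became 8 with cyclic loess, 1 without Y+I animals 2 and 3 (Celsr1), and 2 to 5 with single arrays left out; 2 remained without vehicle animal 4 (Celsr1 and Ryk). Targets gave 0 to 1, the 1 being Jag1 without Y+I animal 2. With single arrays left out, differences spanned 0 for Apc (-0.050 to 0.22), Ctnnb1 (-0.0054 to 0.28), Fzd8 (-0.069 to 0.082), Gsk3b (-0.16 to 0.031), Lrp6 (-0.15 to 0.25), Nkd1 (-0.24 to 0.033) and Wnt7a (-0.016 to 0.054).

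Animals of the same number in both groups did not deviate together (r of 0.05, -0.11, -0.04 and 0.04 for animals 1 to 4), so the numbers were not taken as pairs. With animal number as a replicate block, 144 features, 0 Wnt genes (Wnt3 adjusted p = 0.111) and 2 other pathway genes (Ryk and Sostdc1) were called, with adjusted p for Ror2 of 0.0768, for Tle2 of 0.0680, for Tpbg of 0.123 and for Celsr1 of 0.0525.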

Other observations

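The deposited value table held 1 value for Lrp5 that departed from the scanner values. In Y+I animal 1 the table gave 3.33, against -1.08 to -0.84 in the other Y+I animals and -1.13 to -0.72 in vehicle animals. The array carries 2 spots of the Lrp5 probe; in Y+I animal 1 one of them was flagged as an outlier at a processed signal of 274996 scanner units, and the other read 561. Over unflagged spots of all 8 arrays the signal, not scaled for the brightness of the array, was 289.5 to 667 in Y+I and 580.2 to 816 in vehicle. With the flagged spot left out, as in the values above, Lrp5 in that animal was -1.75. A reader who takes Lrp5 from the table would find a difference of 1.02, against -0.12 from the unflagged spots.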
